A study of Mus musculus with 19 samples.

Results

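Cells that carried monocyte and MHC class II macrophage genes together, the pattern given for monocytes turning into such macrophages, were examined in single-cell RNA sequencing of immune cells from B16-F10 melanoma, a transplantable tumour line of C57BL/6 mice. A cell was counted as such when it held at least 1 UMI (a count of 1 captured RNA molecule) of Ccr2 and of Ly6c2, at least 5 UMIs of C1qa, C1qb and C1qc together, and at least 5 UMIs of H2-Ab1. The cells were thus chosen by their own UMI counts of these genes, and those counts are no finding. Upper limits on other genes kept out cells rich in Chil3 and Hp (under 10 UMIs), Arg1 and Inhba cells (under 3) and cycling cells (Mki67 and Top2a under 4). They also kept out Cxcl9 cells (under 5), Mmp12 cells (under 10), Gas6 cells (under 5) and Ifnb1 cells (under 3). Lyve1, Cd209f and Fcna cells (under 3 together) and cells with any Cd3d, Cd3e or Cd3g UMI were left out too. The libraries are snapshots and follow no cell over time. The gate found 454 cells among the 16600 cells kept, of which 259 came from the KO library and 195 from the SCR library.

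The KO library came from tumours of B16-F10 cells labelled Mettl5 KO, and the SCR library from tumours of the same line with a scrambled control. The library name of the SCR library is WT, and its title gives the scrambled control. In both, live CD45-positive cells were sorted from the tumour and read from the 5′ end of the RNA, so the genotype is that of the tumour cells while the sorted cells belonged to the host. The labels used here do not say how many tumours or mice went into a library, their age or the day of collection, or whether the KO cells were 1 clone. With 1 library per genotype there is no replicate, no test was made, and every interval below covers counting error only.

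Classical monocytes leave the bone marrow through the chemokine receptor CCR2 and carry the surface protein LY6C. In tissues and tumours they can lose LY6C and CCR2 and take on macrophage genes such as those of the complement component C1q. MHC class II molecules present peptides to CD4 T cells, and the transactivator CIITA switches on their genes together with those of the invariant chain CD74 and the peptide-loading proteins H2-DM.

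The 8361 KO and 8239 SCR cells kept had medians of 8035 and 8906 UMIs, and the gated cells had medians of 8388 UMIs in KO and 9688 in SCR. The deposited libraries shared 116 cell barcodes, 5 KO gated cells carried a shared barcode, and no barcode was gated in both libraries. Mettl5 itself, which the host cells carry unedited, had 21 UMIs in KO and 28 UMIs in SCR gated cells and checks no label here.

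The gate fixed 4 of the 5 markers given for these cells, so their levels are a description. The median gated cell held 2 Ccr2, 3 Ly6c2, 52 C1q and 35 H2-Ab1 UMIs in KO, and 3 Ccr2, 4 Ly6c2, 63 C1q and 45 H2-Ab1 UMIs in SCR. Ccr2 rested on a single UMI in 93 KO and 59 SCR cells, and Ly6c2 in 69 KO and 46 SCR cells. The fifth marker, Ms4a4c, a membrane protein gene of the MS4A family that the gate did not use, was detected in 83.8% of KO and 85.6% of SCR gated cells. Among T cells of the same libraries, which should lack it, the share was 3.97% in KO and 8.39% in SCR, at medians of 3256 and 3515 UMIs against 8388 and 9688 in the gated cells. The RNA of Ly6c1, a near copy of Ly6c2, gave 4 UMIs in KO and 3 in SCR gated cells, and reads of such copies may not be told apart. Values of the Ms4a4, Ly6 and H2 families are uncertain for the same reason.

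Cells carrying defining markers of another type numbered 30 in KO (11.6%) and 22 in SCR (11.3%). These were markers of NK cells in 8 KO and 10 SCR cells, of mature or type 1 dendritic cells in 12 and 4, of melanoma in 9 and 6, and of B cells in 6 and 4. As CPM, a gene's summed UMIs scaled to a common total over all genes of the gate, NK-cell markers summed to 134.1 in KO and 125.5 in SCR gated cells, against 54.7 and 30.9 in monocytes and 20.4 and 22.6 in macrophages, so they moved with the comparisons below. T-cell markers summed to 19.5 CPM in KO and 20.8 in SCR, with Cd3d, Cd3e and Cd3g at 0 by the rule. Dendritic-cell genes summed to 353.9 CPM in KO and 331.4 in SCR gated cells, against 227.6 and 355.5 in monocytes and 265.9 and 245.4 in macrophages, so they moved with the comparison with macrophages. Of the 4 measured, 3 were at least 1.5-fold higher in both libraries than in monocytes and 1 than in macrophages. Cd209a, a lectin gene of monocyte-derived and dendritic cells, was not among the 4, since it had under 200 UMIs in the gated cells. Its log2 ratios against macrophages were 1.93 in KO and 3.27 in SCR, from 15 and 13 gated cells. Flt3, the receptor that defines conventional dendritic cells, had UMIs in 5 KO and 3 SCR gated cells. The part of these cells in the results below was not tested beyond the values without them that stand beside the results. These markers cannot show a barcode that holds a monocyte and a macrophage together, which could also pass the gate. Among the 6% of barcodes with the highest doublet scores were 33 of the 259 KO and 25 of the 195 SCR gated cells. The part of such barcodes was not tested beyond the values without those 6%.

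Gated cells made up 3.10% of the kept cells in KO (95% exact binomial interval 2.74 to 3.49) and 2.37% in SCR (2.05 to 2.72), a ratio of 1.31 (1.08 to 1.58). They made up 17.6% of all Ccr2+ Ly6c2+ cells in KO and 13.4% in SCR. Among all cells at the C1q and H2-Ab1 limits they made up 8.62% in KO and 7.64% in SCR, a ratio of 1.13 (0.933 to 1.37). Within the upper limits they made up 28.4% of Ccr2+ Ly6c2+ cells in KO and 27.1% in SCR, a ratio of 1.05 (0.866 to 1.27). Of C1q+ H2-Ab1+ cells within those limits they made up 20.3% in KO and 21.8% in SCR, the other order, with a ratio of 0.931 (0.770 to 1.13). Since a gate on UMIs favours deep cells, each cell was also thinned to 5000 UMIs before gating, which left out 2507 KO and 2101 SCR cells. The share of kept cells was then 2.68% in KO and 2.30% in SCR, a ratio of 1.17 whose interval, 0.924 to 1.48, held 1.

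**Figure D1:**
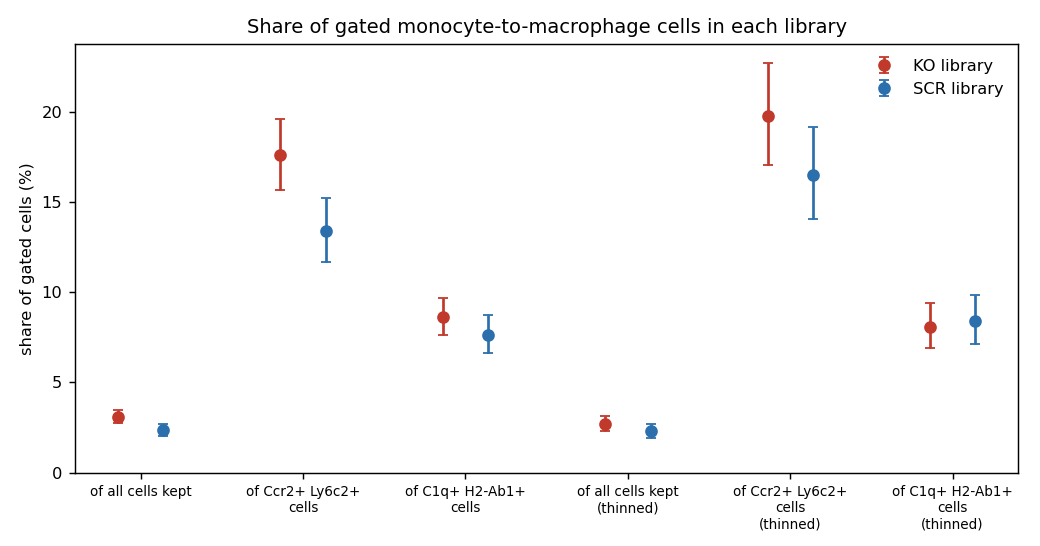
Share of gated cells (percent, y axis) among 3 sets of cells, as deposited and after thinning each cell to 5000 UMIs, in the KO and SCR libraries; bars are 95% exact binomial intervals. The KO points lie higher among all kept cells (3.10% and 2.37%) and among Ccr2+ Ly6c2+ cells (17.6% and 13.4%), while after thinning the intervals of each pair overlap.

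The gated cells were set against a neighbour on each side. The monocytes were Ccr2+ Ly6c2+ cells with under 5 C1q and under 5 H2-Ab1 UMIs (321 in KO, 235 in SCR), and the macrophages were cells at the same C1q and H2-Ab1 limits with no Ccr2 or Ly6c2 UMI (642 in KO, 373 in SCR), all within the same upper limits. The monocytes thus lack the cells richest in Chil3 and Hp, and those kept still gave 447.1 CPM of Hp in KO and 326.8 in SCR. UMIs were summed over the cells of a gate and given as CPM. A gene was called when it was at least 1.5-fold higher, or 1.5-fold lower, in both libraries, among the 3341 genes outside the gate with at least 200 UMIs in gated cells. The median monocyte held 5166 UMIs in KO and 5918 in SCR, and the median macrophage 9057 and 10659, so depth moved with these comparisons.

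Against the monocytes, 270 genes were called higher (8.08% of genes tested) and 195 lower (5.84%). Against the macrophages, 295 were called higher (8.83%) and 84 lower (2.51%). Of these, 82 genes (2.45%) stood between the neighbours with monocytes on top, 56 (1.68%) stood between them with macrophages on top, 12 (0.359%) stood above both, and none (0%) stood below both. These ratios depend in part on the limits of the gates, because genes that follow C1q or H2-Ab1 from cell to cell differ from the monocytes by construction. Likewise, the macrophages were required to hold no Ccr2 or Ly6c2 UMI, so genes that follow these stand above the macrophages by construction, and the place of such genes between the neighbours is a description. The floor of 200 UMIs was set on gated cells alone. Genes low in gated cells but high in a neighbour could thus fail it. The counts of genes lower than a neighbour or below both are therefore limited by the floor.

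**Figure D2:**
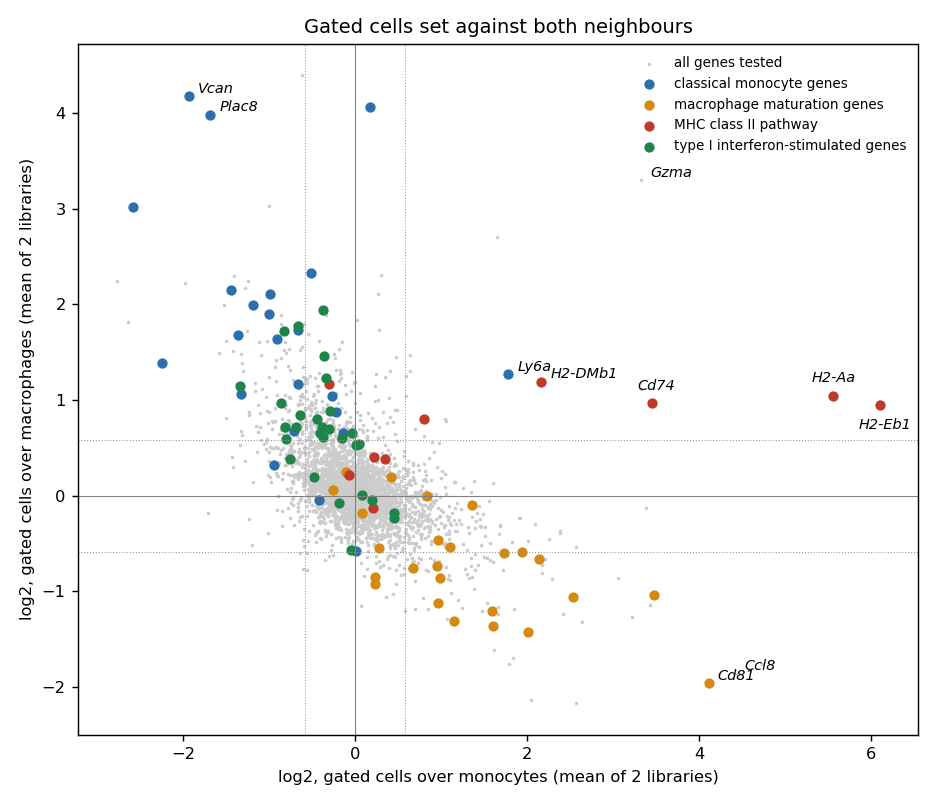
Log2 ratio of each gene's level in gated cells over monocytes (x axis) and over macrophages (y axis), each the mean of 2 libraries; grey points are all 3341 genes tested, coloured points are 4 gene lists, and dotted lines mark 1.5-fold. Most classical monocyte genes lie at the upper left and most maturation genes at the lower right, between the levels of the neighbours, while class II genes such as H2-Aa and Cd74 lie at the upper right, above both.

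Many monocyte genes had levels between those of the neighbours. Of the 23 measured classical monocyte genes (of 30 on the list), 14 were called lower than in monocytes, 1 (Ly6a) higher than in monocytes, and 18 higher than in macrophages, with median log2 ratios against monocytes of -0.81 in KO and -0.84 in SCR. The same medians over all genes were 3.68e-05 in KO and -0.01 in SCR. Plac8, a small cysteine-rich protein gene of myeloid precursors and monocytes, gave 841.4 CPM in KO gated cells, against 2462 in KO monocytes and 55.4 in KO macrophages. In SCR it gave 662.0 in gated cells, against 2321 in monocytes and 40.5 in macrophages, so both libraries placed the gated cells between the neighbours. Vcan, the matrix proteoglycan versican, gave 72.8 CPM in KO and 64.6 in SCR gated cells, against 298.7 and 229.1 in monocytes and 2.39 and 6.06 in macrophages. Ifitm6, an interferon-induced transmembrane gene, was lower than in monocytes by log2 ratios of -2.55 in KO and -2.61 in SCR and higher than in macrophages by 3.12 and 2.91. Thbs1, which encodes thrombospondin 1, gave 634.5 and 494.4 in gated cells, against 1672 and 1371 in monocytes and 118.4 and 134.8 in macrophages.

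Ms4a4c lay nearer to the monocytes. It gave 445.7 CPM in KO gated cells (95% exact Poisson interval 419.5 to 473.2) and 328.3 in SCR (304.8 to 353.0), against 551.9 and 536.5 in monocytes and 77.0 and 75.7 in macrophages. Its log2 ratios against monocytes were -0.31 in KO and -0.71 in SCR, so it passed the 1.5-fold mark in SCR alone and was not called lower, while those against macrophages were 2.53 and 2.12. The genes with the lowest ratios against monocytes, beside Ifitm6, were Plcb1, a phospholipase C gene (log2 -3.11 in KO and -2.43 in SCR), Slpi, a secreted protease inhibitor (-2.97 and -2.30), Gsr, glutathione reductase (-2.09 and -2.39), and Itgb7, the integrin beta 7 chain (-1.90 and -2.05). Ly6i, a further Ly6 gene, stood far above the macrophages (log2 3.39 in KO and 4.73 in SCR) but not clearly apart from the monocytes (0.50 and -0.13).

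Many macrophage genes lay between the neighbours too. Of the 25 measured maturation genes (of 30), 18 were called higher than in monocytes and 12 lower than in macrophages, and none was called the other way. Their median log2 ratios were 1.05 in KO and 0.95 in SCR against monocytes, and -0.65 and -0.86 against macrophages, where all genes had 0.04 and 0.06. Cd81, a tetraspanin, gave 85.3 CPM in KO and 105.2 in SCR gated cells, against 5.24 and 5.75 in monocytes and 371.9 and 365.4 in macrophages. Trem2, a lipid receptor of macrophages, gave 230.5 and 218.5 in gated cells, against 77.4 and 70.4 in monocytes and 538.8 and 613.7 in macrophages. Apoe, the lipid carrier apolipoprotein E, had log2 ratios of 1.64 and 1.55 against monocytes and -0.92 and -1.49 against macrophages. Mrc1, the mannose receptor, had 1.70 and 1.77 against monocytes, and its ratios against macrophages, -0.45 and -0.75, missed the mark in KO. Igf1, a growth factor of mature tissue macrophages, was among the lowest against macrophages, with log2 ratios of -1.81 in KO and -2.53 in SCR.

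Many chemokine and lipid genes were above the monocyte level. Of 12 measured chemokine genes, 7 were called higher than in monocytes and 3 lower than in macrophages, among them Ccl8, a ligand of CCR receptors, at 274.0 CPM in KO and 214.9 in SCR gated cells, against 10.5 and 12.2 in monocytes and 790.9 and 980.8 in macrophages. Ccl8 was found in 55 KO and 40 SCR gated cells, and 1 cell held 28.2% of its UMIs in KO and 47.5% in SCR. Ccl6 and Ccl9, chemokines of myeloid cells, were the 2 called higher than in macrophages, at log2 ratios of 1.30 and 0.95 in KO and 1.10 and 0.80 in SCR. Of 15 measured lipid-handling genes, 8 were called higher than in monocytes and 4 lower than in macrophages. Of 14 complement and Fc receptor genes, 6 were called higher and 1 lower than in monocytes, the lower one being C3, the central complement component (74.1 and 48.3 CPM, against 196.8 and 163.8 in monocytes). Retnla, a secreted protein of alternatively activated macrophages, was found in 8 KO and 11 SCR gated cells, and the 5 highest cells held 97.5% of its UMIs in KO and 96.0% in SCR.

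**Figure D3:**
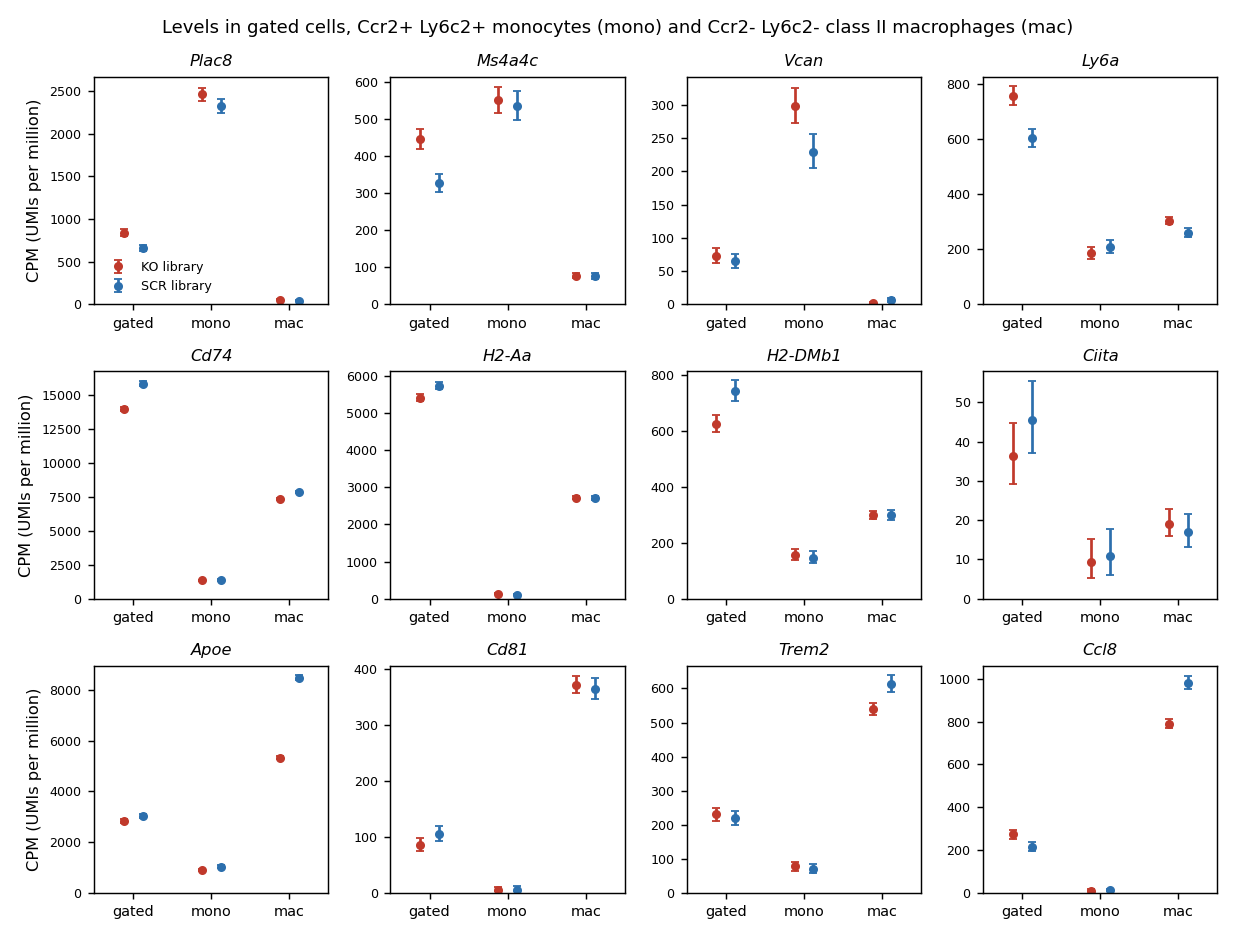
CPM (y axis, starting at 0) of 12 genes in gated cells, monocytes (mono) and macrophages (mac) of the KO and SCR libraries; bars are 95% exact Poisson intervals. Plac8 and Vcan fall between the neighbours with monocytes on top, Cd81 and Trem2 with macrophages on top, and Cd74, H2-Aa, H2-DMb1, Ciita and Ly6a lie higher in gated cells than in either neighbour in both libraries. Cells with Ccr2 alone or Ly6c2 alone are not shown.

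Class II genes were higher in the gated cells than in macrophages that had passed the same H2-Ab1 limit. Of the 10 measured genes of the class II pathway (of 18), 5 were called higher than in monocytes and 6 higher than in macrophages, and none lower. Without cells that carried markers of other types, 5 of 9 were called higher than in each neighbour, and after thinning to 5000 UMIs 5 of 8 were higher than in monocytes and 3 of 8 higher than in macrophages. H2-Aa, the alpha chain of the I-A molecule, gave 5417 CPM in KO and 5740 in SCR gated cells, against 128.7 and 109.2 in monocytes and 2715 and 2710 in macrophages. H2-Eb1, the beta chain of I-E, gave 3650 and 4331 in gated cells, against 58.8 and 56.7 in monocytes and 2023 and 2115 in macrophages. Cd74, the invariant chain, gave 13945 and 15833 in gated cells, against 1346 and 1375 in monocytes and 7351 and 7842 in macrophages. H2-DMb1, a chain of the peptide-loading molecule, gave 627.0 and 745.1 in gated cells, against 157.2 and 147.2 in monocytes and 299.8 and 298.7 in macrophages. H2-DMa, its partner chain, had smaller log2 ratios against macrophages, 0.64 in KO and 0.95 in SCR.

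Regulators and costimulatory genes of the pathway were measured at lower counts or differed less. Ciita, the class II transactivator, lay below the 200 UMIs required, with 88 UMIs in KO and 101 in SCR, or 36.4 CPM (29.2 to 44.9) and 45.6 (37.1 to 55.4) in gated cells, against 9.31 and 10.8 in monocytes and 19.1 and 17.0 in macrophages. Rfx5, whose protein binds the class II promoters, had 12 UMIs in KO and 8 in SCR gated cells, and Rfxap, its partner, gave 33.5 and 42.4 CPM, against 41.3 and 37.3 in monocytes and 31.8 and 34.4 in macrophages. Cd86, a costimulatory ligand of CD28, had log2 ratios of -0.02 in KO and -0.11 in SCR against monocytes, and Cd80, a second such ligand, was called higher than in macrophages (44.7 and 61.0 CPM in gated cells, against 22.8 and 23.8). Of 16 measured MHC class I genes, 2 were called higher than in monocytes and 0 were called against macrophages in either direction.

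The promoters of 3 of the genes above both neighbours share the elements through which CIITA acts, and are printed to show them side by side. The stretches come from RefSeq with the GRCm38.p6 build, which is not the build of the counts, and run 5′ to 3′ on each gene's strand; capitals mark the X element (AAC, 2 or 3 free bases, TGA, 1 free base and G) and then the Y box (GATTGG).
H2-Aa: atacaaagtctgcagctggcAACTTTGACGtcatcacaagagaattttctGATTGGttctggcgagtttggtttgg
H2-Eb1: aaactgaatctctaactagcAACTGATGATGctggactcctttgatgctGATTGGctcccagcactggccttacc
H2-DMb1: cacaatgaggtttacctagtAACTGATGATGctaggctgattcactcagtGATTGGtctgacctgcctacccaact
They lie at chr17:34287847-34287922 on the minus strand for H2-Aa (bases -99 to -24 from the start site), and on the plus strand at chr17:34305758-34305832 for H2-Eb1 (-109 to -35) and chr17:34153079-34153154 for H2-DMb1 (-112 to -37). The gap between X and Y was 20 bases in H2-Aa, 18 in H2-Eb1 and 19 in H2-DMb1. The letters were chosen after these 3 sequences were read, so their match is a description. In the 250 bases before the start of all 32851 listed promoters, with both strands searched, 51 (0.155%) held X followed by Y on 1 strand within 60 bases. The Y box alone was in 14.6% of them and X alone in 4.68%. H2-DMb2 held the pair too, and H2-DMa, C1qb and C1qc did not, which says only that these letters are not in that window.

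The other genes above both neighbours were few and of mixed kinds. Ly6a, which encodes the surface antigen SCA-1 and is inducible by interferon, gave 756.6 CPM in KO and 602.8 in SCR gated cells, against 185.1 and 207.6 in monocytes and 303.0 and 260.2 in macrophages. Scimp, a transmembrane adaptor of class II signalling, had log2 ratios against macrophages of 0.82 in KO and 0.78 in SCR, and Tnip3, an inhibitor of NF-kB signalling, 0.74 and 0.82. Mgl2, a lectin of macrophages and dendritic cells, gave 67.0 and 98.0 in gated cells, against 3.49 and 18.7 in monocytes and 35.0 and 40.0 in macrophages. C1q+ H2-Ab1+ cells with Ccr2 but no Ly6c2 UMI, within the same upper limits, gave more Mgl2, 104.3 in KO and 103.6 in SCR. Gzma, a granzyme of NK and T cells, had the highest of the smallest ratios among the 12 but came from 9 cells in each library, of which the 5 highest held 88.5% of its UMIs in KO and 79.9% in SCR. Without the cells that carried markers of other types, 10 genes stood above both neighbours, 9 of them among the 12, and Gzma, Spon1 and Snhg15 were not among them. After thinning to 5000 UMIs, 5 genes did, 4 of them among the 12. Those of the 12 lost on thinning were H2-Aa, H2-Eb1, Mgl2, Scimp, Tnip3, Gzma, Spon1 and Snhg15. H2-Aa then had log2 ratios against macrophages of 0.83 in KO and 0.57 in SCR, just short of the mark in SCR. At 2-fold without thinning, 4 genes stood above both, and H2-Aa, H2-Eb1, Cd74 and H2-DMa were not among them.

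Type I interferon genes lay nearer to the monocytes, with median log2 ratios of -0.30 in KO and -0.38 in SCR against monocytes and of 0.64 and 0.60 against macrophages. Of 29 measured type I interferon-stimulated genes (of 36 on the list), 15 were called higher than in macrophages, none lower, and 4 were called lower than in monocytes. After thinning to 5000 UMIs the medians were 0.18 in KO and 0.09 in SCR against monocytes, and 0.82 and 0.48 against macrophages. Of the 16 genes then measured, 0 were called lower than in monocytes and 7 higher than in macrophages. Slfn1, a Schlafen family gene, gave 116.3 CPM in KO and 87.6 in SCR gated cells, against 140.3 and 121.4 in monocytes, with log2 ratios against macrophages of 2.02 and 1.87. Ifi205, of the interferon-inducible p200 family, gave 139.9 and 108.8, against 252.1 and 189.6 in monocytes and 39.6 and 35.4 in macrophages. Of 14 measured interferon-gamma response genes, 4 were called higher than in macrophages. Against monocytes 3 were called lower, among them Gbp2, a guanylate-binding protein gene (136.6 and 140.0, against 292.8 and 461.8 in monocytes), and 2 higher, Fcgr4 (log2 1.64 in KO and 0.86 in SCR) and the chemokine gene Ccl5 (1.15 and 1.22). Of 14 inflammatory and NF-kB genes, 5 were called higher than in macrophages and none was called against monocytes. Il1b, the cytokine interleukin 1 beta, gave 2206 and 2016 in gated cells, against 2092 and 2609 in monocytes and 669.6 and 716.1 in macrophages.

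Among all C1q+ H2-Ab1+ cells within the upper limits, class II levels followed Ccr2 and Ly6c2. H2-Aa gave 5417 CPM in KO and 5740 in SCR cells with both genes, 4930 and 5371 in cells with Ccr2 alone (207 KO and 225 SCR cells), 4601 and 4152 in cells with Ly6c2 alone (169 and 102 cells), and 2715 and 2710 in cells with neither. Cd74 and H2-Eb1 were likewise lowest in the cells with neither gene in both libraries. H2-Aa, H2-Eb1, Cd74, H2-DMb1 and H2-DMa were highest in the cells with both genes in both libraries. Ciita and Ly6a were not. Ciita gave 43.8 CPM in KO and 48.0 in SCR with Ccr2 alone, against 36.4 and 45.6 with both genes. Ly6a gave 762.6 and 757.2 with Ly6c2 alone, against 756.6 and 602.8 with both. Plac8 was higher with Ly6c2 alone (450.1 in KO and 579.2 in SCR) than with Ccr2 alone (220.3 and 142.1). A UMI can be missed, so cells with 1 of the genes may hold the RNA of both.

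The gate was also opened on 1 side at a time. Ccr2+ Ly6c2+ cells with at least 5 H2-Ab1 UMIs but under 5 C1q UMIs numbered 256 in KO and 233 in SCR. H2-Aa gave 5456 and 5760 CPM in them, a level that their H2-Ab1 limit fixed in part, and Plac8 gave 1471 and 1450, between the gated cells and the monocytes. The 76 KO and 56 SCR cells with C1q but under 5 H2-Ab1 UMIs gave 222.2 and 91.4 for H2-Aa, which their H2-Ab1 limit fixed in part, and 2540 and 4914 for Apoe. At the edge of the gate, the 12 KO and 6 SCR cells with 5 or 6 C1q UMIs gave 1368 and 1469 CPM of Plac8, and the 15 and 13 cells just outside, with 3 or 4, gave 1755 and 1555.

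The gated cells themselves varied along C1q. The gated cells of each library were ranked by C1q UMIs per 10000 UMIs and cut into 4 groups of near equal size, from at most 34.5 in KO and 33.2 in SCR in the lowest to at least 113.1 and 100.8 in the highest. Between the highest and the lowest group, 64 genes were called higher (1.92%) and 132 lower (3.95%). Of 25 maturation genes 10 were higher and none lower, of 23 monocyte genes 10 were lower and none higher, and of 29 type I interferon-stimulated genes 9 were lower and none higher. None of the 10 class II genes was called in either direction. Plac8 gave 1275, 992.3, 735.5 and 459.7 CPM from the lowest to the highest group in KO, and 905.5, 538.3, 688.4 and 495.3 in SCR. Cd81 gave 41.1, 54.2, 106.3 and 128.5 in KO, and 41.4, 82.2, 124.8 and 176.2 in SCR. Cd74 gave 12610, 15924, 14881 and 12615 in KO, and 13857, 18071, 15214 and 16379 in SCR, with no steady course. Mx1, an interferon-induced antiviral gene, gave 94.6 in the lowest and 28.5 in the highest KO group, and 65.5 and 20.4 in SCR. Areg, which encodes the growth factor amphiregulin, had log2 ratios of the highest over the lowest group of -2.21 in KO and -2.02 in SCR, from 19 KO and 16 SCR cells with a UMI. Igf1 had ratios of 3.03 and 3.10, from 33 and 28 cells.

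**Figure D4:**
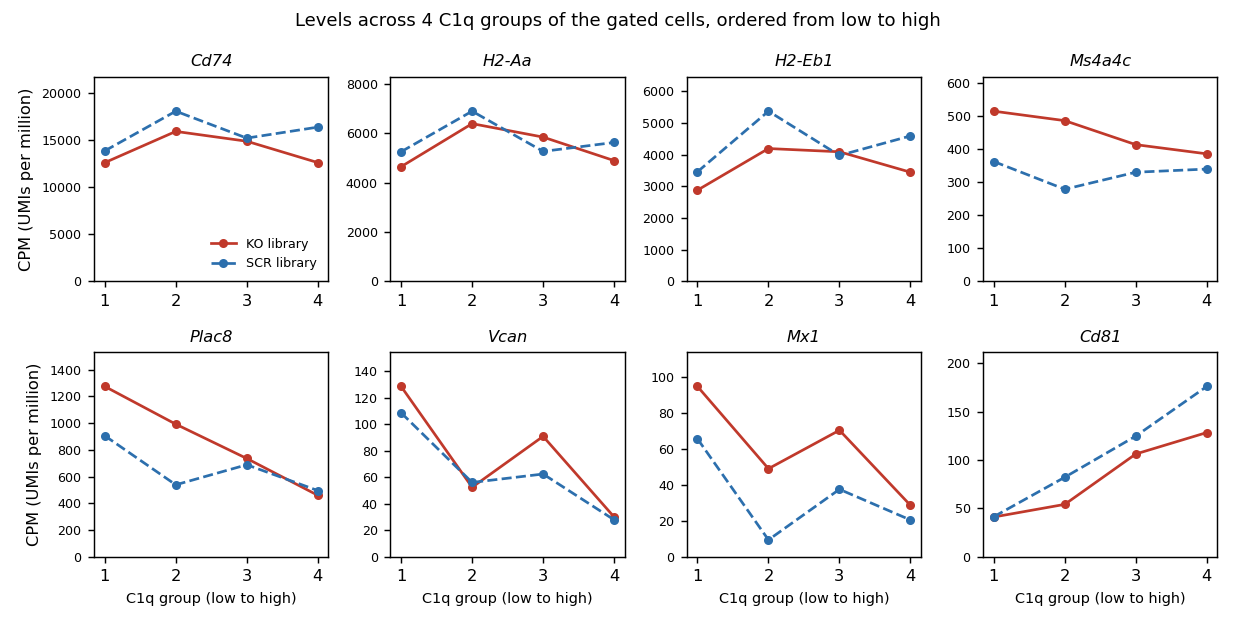
CPM (y axis, starting at 0) of 8 genes in 4 C1q groups of the gated cells, ordered from low to high C1q (x axis), in the KO and SCR libraries. Plac8, Vcan and Mx1 are lower and Cd81 higher in the last group than in the first in both libraries, while Cd74, H2-Aa and H2-Eb1 follow no steady course.

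Between the genotypes few genes were called. Of the 3341 genes, 38 (1.14%) were at least 1.5-fold higher in KO and 20 (0.599%) at least 1.5-fold lower, around a median log2 ratio of 0.04. No member of the class II pathway, the monocyte list or the maturation list was called. H2-Aa differed by a log2 ratio of -0.08, Cd74 by -0.18 and H2-DMb1 by -0.25, and Ms4a4c by 0.44. Trmt112, whose protein is the partner of METTL5, gave 197.0 CPM in KO and 202.7 in SCR.

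Hypoxia genes had lower levels in KO. Of 19 measured hypoxia and glycolysis genes, 3 were called lower in KO and 0 had a level above that in SCR, with a median log2 ratio of -0.30. Ero1a, an oxidase of the endoplasmic reticulum induced by hypoxia, gave 54.2 CPM in KO (45.3 to 64.3) and 116.5 in SCR (102.7 to 131.6). Bnip3, a mitophagy receptor, gave 58.8 in KO and 125.1 in SCR, and Slc2a1, the glucose transporter GLUT1, 70.4 and 126.4. The monocytes showed a like difference for these 3 genes. Ero1a gave 55.9 in KO and 102.0 in SCR monocytes, Bnip3 58.8 and 100.6, and Slc2a1 112.4 and 211.9. The macrophages did not, with 64.8 in KO and 58.9 in SCR for Ero1a, 100.9 and 114.7 for Bnip3, and 69.5 and 74.7 for Slc2a1. Fdps and Cyp51, enzymes of sterol synthesis and both among the 10 lowest genes, gave 72.0 and 42.2 in KO, against 143.1 and 77.7 in SCR. Hmox1, heme oxygenase 1, gave 353.9 in KO and 626.7 in SCR, though 1 cell held 20.8% of its UMIs in KO and 29.5% in SCR. Dct, a melanin enzyme of melanoma cells, had the lowest log2 ratio, -2.93, with 84.6% of its SCR UMIs in 1 cell. Heat shock and dissociation genes moved with these, at a sum of 23794 CPM in KO and 28752 in SCR, and their part in the result was not tested. Without the 6% of barcodes with the highest doublet scores, 1 of 18 hypoxia genes was lower in KO, and after thinning to 5000 UMIs 0 of 11 were.

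Chemokine genes went both ways between the genotypes: 7 of 12 had a level above that in SCR, with a median log2 ratio of 0.12, and none was called higher. After thinning to 5000 UMIs the median was -0.22, with 4 of 11 called lower and 0 higher. Without the 6% of barcodes with the highest doublet scores it was -0.07, with 3 of 12 lower and 0 higher. Under the other alternatives the median lay between -0.04 and 0.16, so its sign depended on the setting. Ccl3, an inflammatory CC chemokine, gave 429.6 CPM in KO and 697.6 in SCR, and was the 1 gene called of the 12 on the chemokine list. Ccl4, a further CC chemokine, gave 3099 in KO and 4635 in SCR, a log2 ratio of -0.58 that fell just short of the mark. Cxcl10, a chemokine ligand of CXCR3, was counted on the interferon-gamma list instead. It gave 580.7 in KO and 889.5 in SCR and was the 1 of 14 interferon-gamma response genes called lower. Fcgr4, an Fc receptor gene, was the 1 called higher, at a log2 ratio of 0.62, and the median of that list was 0.24. The macrophages had 780.1 CPM of Ccl3 in KO and 978.9 in SCR.

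Among the genes higher in KO, the largest ratio was found in few cells. Ccr7, a receptor of mature dendritic cells, gave 71.6 CPM in KO and 17.6 in SCR, from 22 KO and 9 SCR cells, and 1 cell held 35.3% of the KO UMIs. Ifitm1, an interferon-induced transmembrane gene, gave 214.4 in KO and 82.2 in SCR, in 52 and 34 cells. Spon1, which encodes the matrix protein F-spondin, gave 62.9 in KO and 27.5 in SCR, in 76 and 34 cells, and Nr1h3, the oxysterol receptor LXR alpha, gave 59.6 and 31.2, in 79 and 39 cells. Of 29 type I interferon-stimulated genes 3 were called higher and 1 lower, with a median log2 ratio of 0.20. Mx1 gave 58.8 and 33.9, Ifit3, an RNA-binding antiviral gene, 151.1 and 94.8, and Ifih1, the RNA sensor MDA5, went the other way at 133.3 and 201.4. Without cells over 20000 UMIs, 0 of 26 of these genes were called higher and 2 lower.

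**Figure D5:**
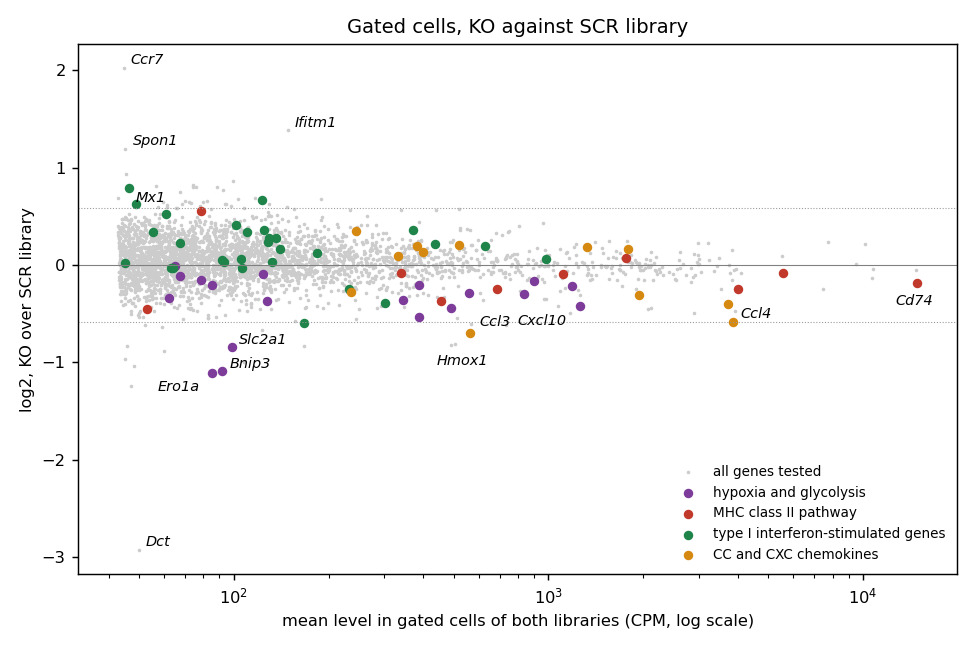
Log2 ratio of KO over SCR (y axis) against the mean level in gated cells of both libraries (CPM, log scale, x axis) for 3341 genes, with 4 lists in colour and dotted lines at 1.5-fold. Class II genes lie between the lines (Cd74 at -0.18), hypoxia genes such as Ero1a and Bnip3 lie below the lower line, and Ccr7, Ifitm1 and Spon1 lie above the upper line.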

How the data were processed

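Counts of UMIs per gene and cell were deposited by the authors for 1 KO and 1 SCR library; per the file headers, Cell Ranger 8.0.1 made them. The submitters' processing notes name GRCm39. A barcode was kept from 500 UMIs and 300 genes upward if its mitochondrial share was below 10%, which left out 93 KO and 102 SCR barcodes. UMIs were summed per gate and library and divided by the total in Python 3.11.15 (numpy 2.4.6, scipy 1.17.1, pandas 2.3.3, with Scrublet from scanpy 1.11.5). For ratios, sums under 3 UMIs counted as 3. Intervals are exact Poisson or exact binomial (Clopper-Pearson), at 95%. The KO over SCR calls were tested on simulated counts with counting error only. The gates, the comparisons with the neighbours, the thinning and the C1q groups were not tested in this way. The members and the 28 gene lists were chosen with earlier results of these data known. Named were the 10 highest and 10 lowest genes per comparison, up to 8 above both neighbours, up to 4 per list and up to 6 per direction between the highest and lowest C1q groups, without predicted genes. Not all are printed. Other named genes, among them Apoe, Mrc1, Ciita, Rfx5, Rfxap, Cd86, Il1b, Scimp, Tnip3 and H2-DMa, were chosen after their values were seen. Scrublet's own threshold called 1 of 8454 KO and 0 of 8341 SCR barcodes, so it did not work, and its highest 6% of scores were left out as an alternative. The 22 genes of the gate entered no count of genes.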

Additional observations from a re-analysis of the deposited data

Results flagged for a closer look

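In 2 cases the gated cells of the libraries moved in opposite directions past 1.5-fold against the same neighbour. The difference between the libraries was not tested, since each is 1 sample. Spp1, which encodes osteopontin, gave 619.2 CPM in KO gated cells, against 376.7 in KO monocytes (log2 0.72), and 416.3 in SCR gated cells, against 1227 in SCR monocytes (log2 -1.56), so that the KO log2 ratio minus the SCR one was 2.28. A single cell held 33.9% of the Spp1 UMIs of the KO gated cells. Another ratio, the log2 ratio of KO over SCR gated cells, was 0.11 without the highest cell of each library, against 0.57 with them. It leaves the monocytes out, so it does not measure the flagged difference. Dct, a melanin enzyme of melanoma cells, gave 11.6 CPM in KO gated cells, against 55.5 in KO macrophages (log2 -2.26), and 88.1 in SCR gated cells, against 27.9 in SCR macrophages (log2 1.66), a difference of -3.92. A single SCR cell held 165 of the 195 Dct UMIs.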

How the results depend on the processing

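No paired analysis was possible because each genotype has 1 single-cell library and no result comes from a test. The KO over SCR ratio of the share among all kept cells stayed above 1 and inside its counting interval in all 9 alternatives, while among C1q+ H2-Ab1+ cells it was 0.962 after thinning and, within the upper limits, 0.931 as deposited and 0.867 after thinning. Thinning to 5000 UMIs left 1168 genes with enough UMIs and moved 6 counts: 16 genes higher in KO (2 of them among the 38), 70 higher and 57 lower than in monocytes, 140 higher and 27 lower than in macrophages, and 5 above both neighbours. A floor of 100 UMIs gave 125 genes higher and 66 lower in KO, 444 higher and 317 lower than in monocytes, and 145 lower than in macrophages. That floor tests more genes than the 3341, so these counts alone do not show a larger share. At 2-fold, among the same 3341 genes, 3 were higher and 5 lower in KO, and 103 were higher and 46 lower than in monocytes. Against macrophages 102 were higher and 25 lower, and 4 stood above both. At least 2 UMIs of Ccr2 and of Ly6c2, which left fewer cells and so fewer genes tested, gave 148 higher and 102 lower than in monocytes and 41 lower than in macrophages. Means over cells gave 35 genes lower in KO; the cause was not tested. The count of genes below both neighbours was 0 in the gates as set and 1 under 5 alternatives (C1q and H2-Ab1 at 3 or at 10, no Chil3 and Hp limit, the top 6% of doublet scores left out, the 100 UMI floor). Of 1878 values of single genes under the alternatives, 1567 stayed inside their counting interval, 305 left it and 6 turned sign. Those were Dct in KO against SCR (log2 0.26 thinned), Retnla (-0.79 against SCR monocytes thinned, 0.31 against KO macrophages without cells over 20000 UMIs), Gzma (-0.37 in KO and -0.52 in SCR against monocytes without cells carrying markers of other types) and Tnip3 (-0.41 against SCR macrophages thinned). Alternatives with the top doublet scores, markers of other types and each gene's highest cell were chosen after seeing the data. Depth limits genes under 200 UMIs, and no setting adds a replicate.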

Other observations

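The machinery of translation and energy differed little. No ribosomal protein gene, of 31 for the small and 45 for the large subunit, was called between KO and SCR, or between gated cells and either neighbour. None of 11 measured mitochondrially encoded genes was called, though the gated cells lay between the neighbours, with a sum over the 13 in the matrix of 8102 CPM in KO and 7547 in SCR, against 6780 and 7071 in monocytes and 10516 and 10433 in macrophages. Of 18 chemokine and adhesion receptor genes, 2 were called higher and 3 lower than in monocytes, and 5 higher and 1 lower than in macrophages. Itgam, the integrin chain CD11b, gave 242.9 in KO and 198.2 in SCR gated cells, against 361.0 and 354.8 in monocytes and 136.5 and 137.5 in macrophages. Red blood cell genes were at 0 in the gated cells of both libraries.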
